A study of Drosophila melanogaster with 9 samples.

Results

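The trimethyl mark on lysine 27 of histone H3 (H3K27me3) was compared between wild-type female and wild-type male larvae of Drosophila melanogaster. The comparison took 4 of the 9 samples of the series, namely 2 immunoprecipitated libraries from wild-type females and 2 from wild-type males, chosen by the sex, the genotype and the antibody target in the sample titles. All 4 came from larvae of the third instar, and no library of this comparison carried a mutation or a transgene according to the labels. The other samples were 2 libraries from males lacking roX1 and roX2 and 3 inputs, of which the inputs have no peak list and were not analysed here. Each library has its own list of broad peaks, stretches of the genome called as enriched, and the peaks of a list were merged and measured as covered length. Coverage was computed for 13922 protein-coding gene bodies of the Release 6 annotation (2197 on X, 11645 on the large autosomal arms 2L, 2R, 3L and 3R, and 80 on chromosome 4) and for 13383 windows of 10 kb on the same 6 arms. The labels do not say whether the 2 libraries of a sex came from separate larvae, so the spread between them may be technical. Whole larvae were used, and a stretch marked in fewer cells cannot be told apart from one with less of the mark in each cell.

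H3K27me3 is laid down by Polycomb repressive complex 2, in which the methyltransferase is encoded by E(z), and it lies in broad domains over silent developmental regulators such as the Hox genes. Polycomb repressive complex 1 binds the mark through its Polycomb subunit, and DNA elements called Polycomb response elements recruit the complexes in flies. The sexes differ in their X chromosomes: males have a single X, whose transcription is raised by the MSL complex with the roX RNAs, while females have a pair of X chromosomes and no such complex on them. Chromosome 4 is a small autosome bound by a protein of its own, POF.

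Sequencing depth cannot be read from peak lists, and its part in the number of weak peaks was not tested. Peaks on the Y chromosome, a check of the labelled sex, covered 25.2 and 30.4 kb in the females and 301 and 236 kb in the males. The male lists resembled each other more than the female lists did. On X the bases shared by the 2 male lists were 0.776 of those covered in either, against 0.473 for the 2 female lists and 0.400 to 0.454 between the sexes. On the large autosomes the same shares were 0.715, 0.455 and 0.428 to 0.451. A pair of libraries against another pair cannot give an exact permutation p below 0.333, and each measure whose libraries did not overlap between the sexes reached that value (two-sided). For such measures the gap between the groups is therefore set beside the difference between replicates.

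Females had more of the X under H3K27me3 peaks than males, and less of chromosome 4. Peaks covered 9.73% and 11.4% of the X in the females and 6.64% and 6.23% in the males, and the gap of 3.09 percentage points between the groups exceeded the difference of 1.63 points between the female replicates. The mean was 10.5% ± 1.15 in females and 6.44% ± 0.293 in males (SD, n = 2 each), a ratio of 1.64. On chromosome 4 the order was the opposite, with 7.28% and 7.10% in the females against 18.5% and 17.8% in the males. The large autosomes together had 12.1% and 13.8% in the females and 12.9% and 12.2% in the males, so the groups overlapped; among their arms, 3R alone separated the sexes, with 13.1% and 14.9% against 12.5% and 12.02%.

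**Figure D1:**
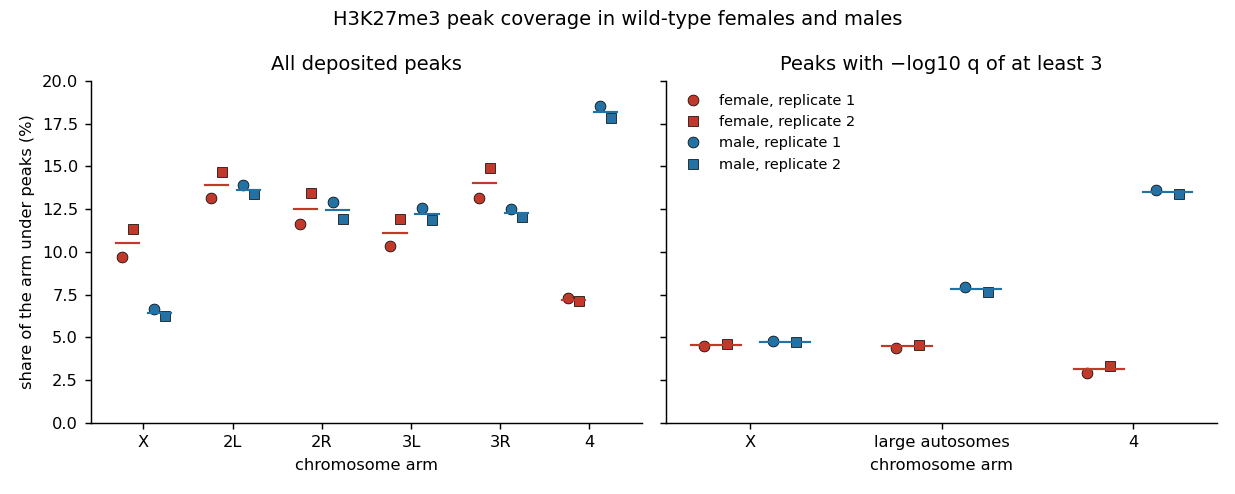
Share of each chromosome arm under H3K27me3 peaks (%), one point per library and a line at the mean of each sex, for all deposited peaks (left, by arm) and for peaks with a −log10 q of at least 3 (right, with the large autosomes pooled). With all peaks the females are above the males on X and below them on 4; with the stronger peaks the sexes lie close together on X, and the males are higher on the autosomes.

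The ratio of autosomal to X coverage was also taken within each library. Its log2 was 0.31 and 0.28 in the females and 0.96 and 0.98 in the males, a gap of 0.65 that exceeds both replicate differences. The X excess of the females was not present among the stronger peaks. When peaks with a −log10 q of at least 3 were kept, coverage of X was 4.47% and 4.62% in the females and 4.78% and 4.72% in the males, so the order reversed. The gap of 0.106 points between the groups was smaller than the difference of 0.146 points between the female replicates. The same limit left 4.37% and 4.58% of the large autosomes covered in the females and 7.96% and 7.64% in the males, and the log2 ratio of autosomes to X still separated the sexes, at −0.03 and −0.01 against 0.74 and 0.69. On chromosome 4 the stronger peaks covered 2.91% and 3.35% in the females and 13.6% and 13.4% in the males, a ratio of means of 0.232 against 0.396 with all peaks. Peaks past that limit made up 13.1% and 11.4% of the X peaks in females and 35.0% and 36.2% in males. A q value depends on depth as well as on enrichment, and the part of depth in these values was not tested.

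The overlap of the sexes on the large autosomes hid opposite differences along the arms. This division was chosen after the values were seen. In the 5 Mb of each arm next to the centromere, coverage of the large autosomes was 7.17% and 8.60% in the females and 18.2% and 15.6% in the males. In the rest of these arms it was 13.2% and 14.9% in the females and 11.7% and 11.5% in the males. The 2 parts differed in the same directions on each of 2L, 2R, 3L and 3R. The contrast next to the centromere was widest on 3L, with 5.37% and 7.35% in the females and 24.01% and 21.0% in the males. On 2R the values there were 5.09% and 6.12% against 18.4% and 14.9%, on 2L 14.3% and 15.8% against 20.7% and 19.1%, and on 3R 3.96% and 5.18% against 9.86% and 7.22%. Over the same 5 Mb the X did not share the pattern, though in its 3 bins of 1 Mb nearest the centromere the sexes overlapped. Females were higher in the 5 Mb of X next to the centromere (5.68% and 8.24% against 4.34% and 3.11%) as well as in the rest of it (10.8% and 12.2% against 7.27% and 7.07%). Outside those ends, the log2 ratio of autosomes to X averaged 0.29 in females and 0.70 in males. With peaks of −log10 q of at least 3 the males were higher in both parts of the large autosomes, with 4.91% and 5.11% in the females and 7.999% and 7.989% in the males away from the centromere. On X the same limit left no female excess in either part, with 0.928% and 1.15% in the females and 1.87% and 1.15% in the males next to the centromere and 5.43% and 5.55% against 5.57% and 5.69% in the rest.

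**Figure D2:**
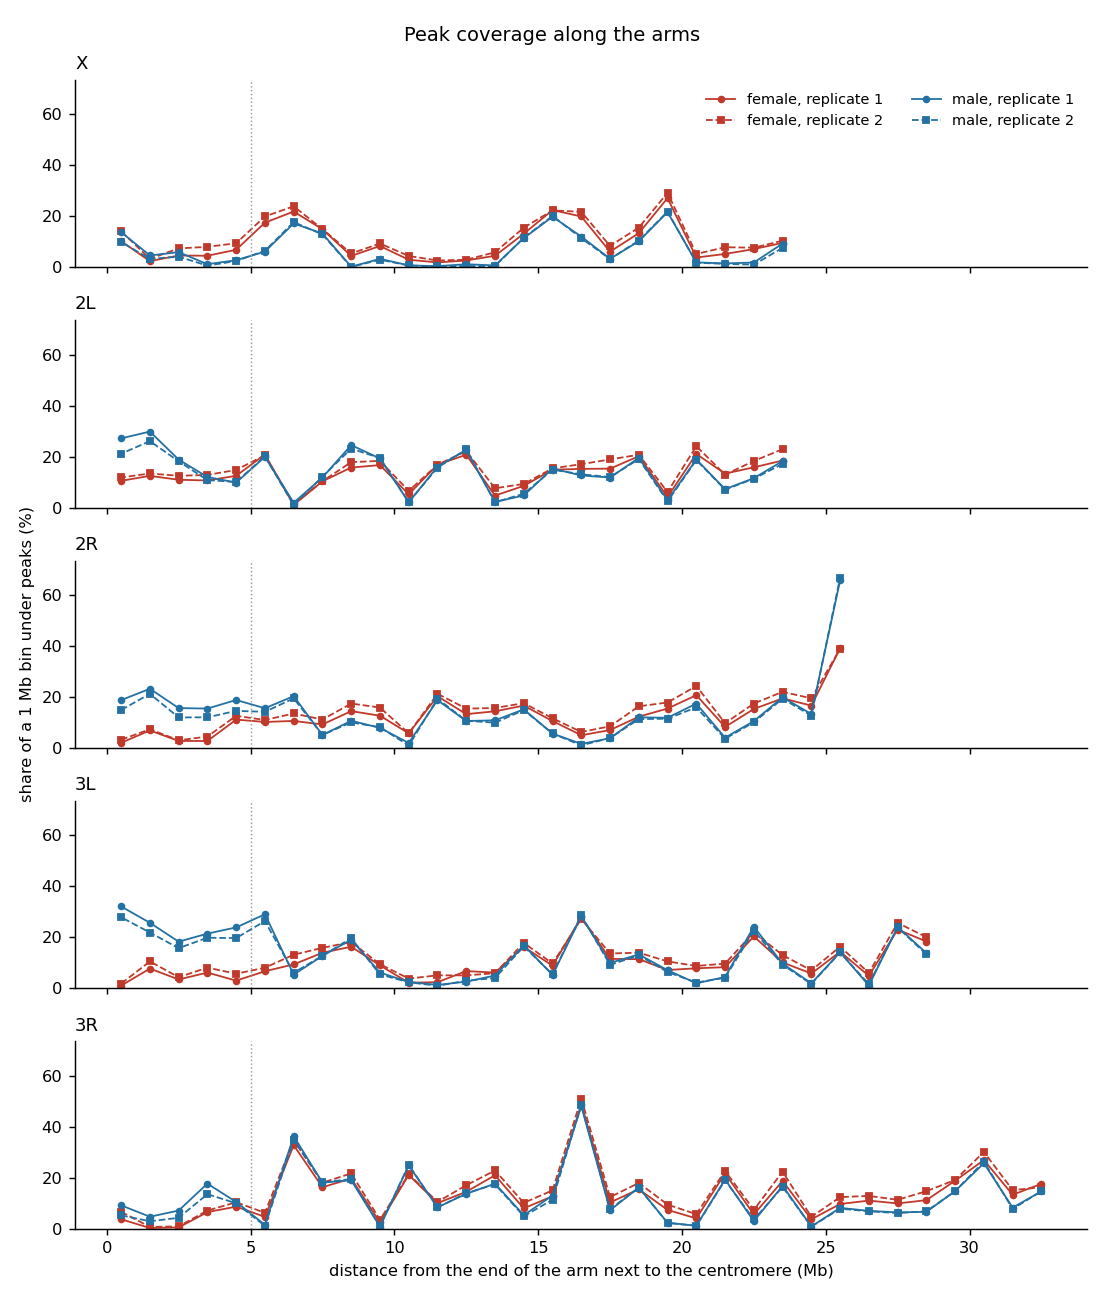
Share of each 1 Mb bin under H3K27me3 peaks (%) against the distance from the centromere end of the arm (Mb), one line per library, with a dotted line at 5 Mb; the last bin of an arm can be shorter than 1 Mb. The male lines run well above the female lines in the bins nearest the centromere of 2L, 2R and 3L, and the female lines are above in 21 of the 24 bins of X.

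In bins of 1 Mb the X excess of the females was spread along the chromosome except at its centromere end. Females were higher without overlap in 21 of the 24 bins of X, males in 0, and the groups overlapped in 3. Those 3 were the bins nearest the centromere, where the differences, female minus male, were 0.966, −1.10 and 0.327 points. On the large autosomes the counts were 70, 30 and 12 of 112 bins.

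Female coverage was made of more and narrower peaks. On the 6 arms the females had 8723 and 10419 merged peaks and the males 4830 and 4345. On X the counts were 1233 and 1585 against 443 and 367, a ratio of means of 3.48, and on the large autosomes 7420 and 8764 against 4313 and 3914, a ratio of 1.97. Chromosome 4 had 70 and 70 peaks in the females and 74 and 64 in the males, so its lower coverage in females came with as many peaks. The median width on X was 0.891 and 0.874 kb in the females and 1.19 and 1.27 kb in the males; on the large autosomes it was 0.860 and 0.888 kb against 1.02 and 1.05 kb. With peaks of −log10 q of at least 3, the peak number no longer separated the sexes, and the median width on X was larger in the females by 0.490 kb.

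The sexes differed most at the 2 ends of the width range. Peaks under 1 kb numbered 709 and 923 on X in the females and 191 and 155 in the males, and covered 1.81% and 2.31% of the X against 0.468% and 0.377%. Peaks over 50 kb were not found on X in females, while males had 4 and 6, which covered 1.24% and 1.89% of it. On the large autosomes there were 6 and 8 such peaks in the females and 43 and 44 in the males, with 0.406% and 0.491% of the arms under them against 3.46% and 3.47%. In the middle of the range, peaks of 5 to 10 kb on the large autosomes covered 1.17% and 1.60% in the females and 1.25% and 1.16% in the males, which overlap. On X 50% of the covered length lay in peaks at least 3.69 and 2.95 kb wide in the females and at least 10.6 and 16.3 kb wide in the males. On chromosome 4 no female peak passed 10 kb, and the widest were 5.49 and 7.96 kb, while the males had 4 peaks of 20 to 50 kb each, which held 39.6% and 40.6% of what was covered there.

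**Figure D3:**
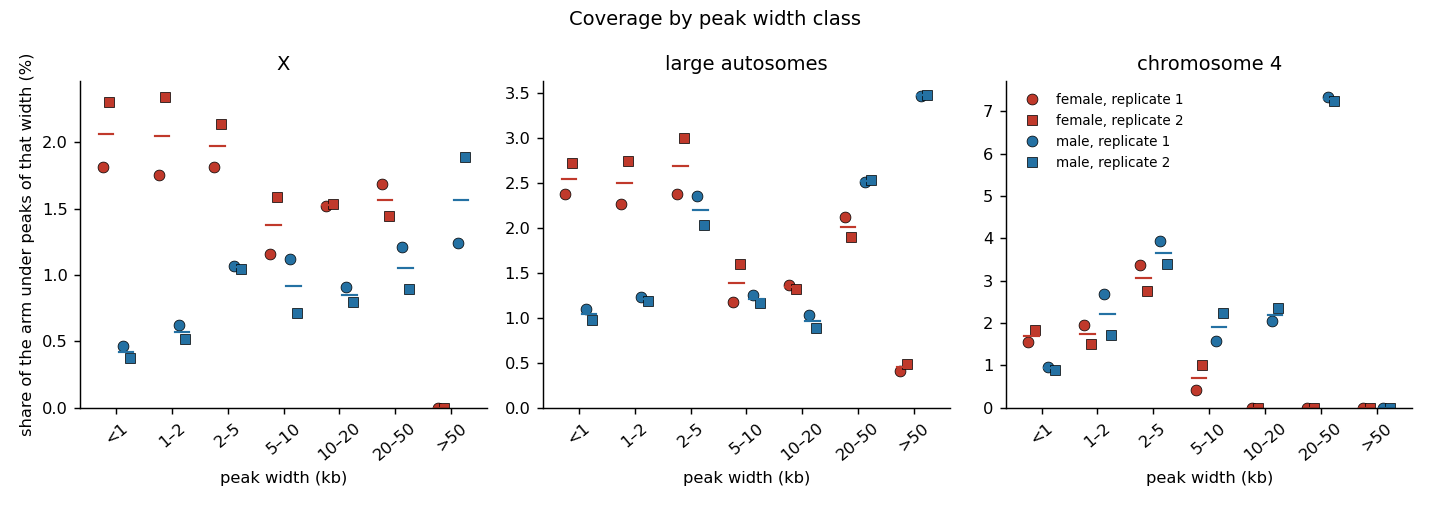
Share of X, of the large autosomes and of chromosome 4 (%) under peaks of each width class (kb), one point per library with a line at the mean of each sex; the vertical scales differ. On X and the large autosomes the females are higher below 2 kb and the males above 50 kb; on chromosome 4 the male peaks of 20 to 50 kb have no female counterpart.

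Bases covered in both females and neither male came to 428 kb on X, and bases covered in both males and neither female to 154 kb. Males had fewer X peaks, which by itself lengthens the distance to the nearest one, and no value expected from that number was computed. Of the female bases 56.4% were over 10 kb from any male peak, against 3.83% of the male bases from any female peak, and 75.1% of the latter were within 1 kb of one. The large autosomes had 1338 kb of such female and 2556 kb of such male bases, with 32.1% and 7.04% over 10 kb from a peak of the other sex. On chromosome 4 it was 3.60 kb against 122 kb. Protein-coding gene bodies held 59.9% of the female bases of X and 31.2% of the male ones, against 70.7% of the whole arm. Of the 1233 and 1585 female X peaks, 326 and 359 met a male peak, and these held 61.4% and 55.6% of the covered length. Another 448 and 441 met no male peak but met the other female list, with median widths of 0.945 and 0.999 kb, and 2.90% and 3.40% of them had a −log10 q of at least 3. The remaining 459 and 785 met no other peak. Among male X peaks 73.6% and 77.9% met a female peak.

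Stretches of 3 kb or more in both libraries of one sex and neither of the other were few. On X there were 16 in females and 2 in males. The longest, 7.10 kb at X:19879397-19886493, overlapped Hers and amn, of which amn encodes a neuropeptide of the memory circuit. Others lay over Bx (X:18530000-18534605), which encodes a LIM-only protein of wing development, and over CG15059 (X:18253538-18258744), beside the upd genes. The large autosomes had 12 in females, the longest 4.35 kb, and 130 in males, the longest 18.9 kb at 2R:259129-278019 with no protein-coding gene. Chromosome 4 had 11 in males, the longest of 12.99, 12.8, 10.1 and 8.65 kb within Sox102F, sv, zfh2 and toy.

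Domains were then defined alike for both sexes, as stretches of at least 10 kb covered in at least 2 of the 4 libraries after joining gaps of up to 3 kb. A domain can meet this through the libraries of one sex alone, and since the male lists share more bases with each other, the fill and direction of domains are descriptions of this set. There were 39 on X, 315 on the large autosomes and 10 on chromosome 4. The mean number of pieces per domain was higher in both females than in both males, at 6.46 and 6.71 in the females and 4.16 and 4.14 in the males on the large autosomes, 6.18 and 6.28 against 4.82 and 4.38 on X, and 4.90 and 5.10 against 3.60 and 3.60 on chromosome 4. Domain by domain, both females had more pieces in 140 of 315 and both males in 28 on the large autosomes, and the counts on X were 19 and 4 of 39. Another measure went the other way: when each list was joined over gaps of 3 kb by itself, a joined piece of X held 1.60 and 1.60 peaks in the females and 1.80 and 1.72 in the males, one of chromosome 4 held 1.59 and 1.63 against 2.31 and 2, and the groups overlapped on the large autosomes. On the large autosomes 14 and 13 domains in the females and 59 and 59 in the males had 1 piece over at least 90% of their length. The median gap inside these domains was alike, 1.44 and 1.38 kb in the females and 1.35 and 1.44 kb in the males, but the gaps numbered 1724 and 1802 against 996 and 990.

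The fill of the domains differed by chromosome. The median covered share of a large autosomal domain was 53.0% and 57.5% in the females and 78.6% and 75.2% in the males, and 223 of the 315 domains were higher in both males, 34 in both females. On X the medians were 70.1% and 74.9% in the females and 66.8% and 65.4% in the males, with 19 of 39 domains higher in both females and 13 in both males. On chromosome 4 they were 29.0% and 28.0% against 76.0% and 77.9%, and 9 of 10 domains were higher in both males.

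Several of the widest domains were in many more pieces in females. The domain of 243 kb at 3R:6820729-7064027, which spans Scr, ftz and Antp of the Antennapedia complex, was in 19 and 18 pieces in the females and 2 and 1 in the males, with 89.8% and 89.2% against 99.4% and 99.2% covered. The domain of 225 kb around abd-A and Abd-B of the bithorax complex had 14 and 16 pieces against 2 and 2. The domain of 201 kb around the spalt genes salm and salr, zinc finger factors of wing and eye patterning, had 33 and 35 pieces against 4 and 4, and 76.8% and 76.3% against 97.5% and 96.9% covered. A domain of 170 kb with esg and wor, of the Snail family, was filled less in females: it was in 42 and 40 pieces in the females and 11 and 9 in the males, with 49.2% and 52.2% covered against 92.2% and 93.8%. Not every wide domain differed much in fill: the domain of 123 kb around ems, a head gap gene, was covered over 97.9% and 93.8% in the females and 97.8% and 97.5% in the males.

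X domains went both ways. The 114 kb around Lim1 were in 14 and 16 pieces and 83.6% and 78.5% covered in the females, and in 6 and 4 pieces and 93.6% and 96.3% covered in the males. The domains next to unc-4 and OdsH were 1 piece in both males and 2 to 4 in the females. Within the gene bodies, unc-4 was in 2 and 2 pieces in the females and 1 and 1 in the males. OdsH itself did not follow, with 2 and 2 pieces in the females and 3 and 2 in the males. Other X domains were fuller in females. The 91.9 kb around upd1, upd2 and upd3, ligands of the JAK/STAT pathway, were covered over 87.2% and 86.0% in the females and 60.5% and 68.5% in the males. The 29.7 kb that reach Bx had 59.6% and 60.1% against 9.86% and 2.001%, and a domain of 11.03 kb at CG32812 had 76.4% and 60.3% against no male peak, having met the definition through the females alone. The domain of 161 kb around bi, which encodes the T-box factor Omb, was alike in all 4 libraries, between 87.1% and 90.6%.

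**Figure D4:**
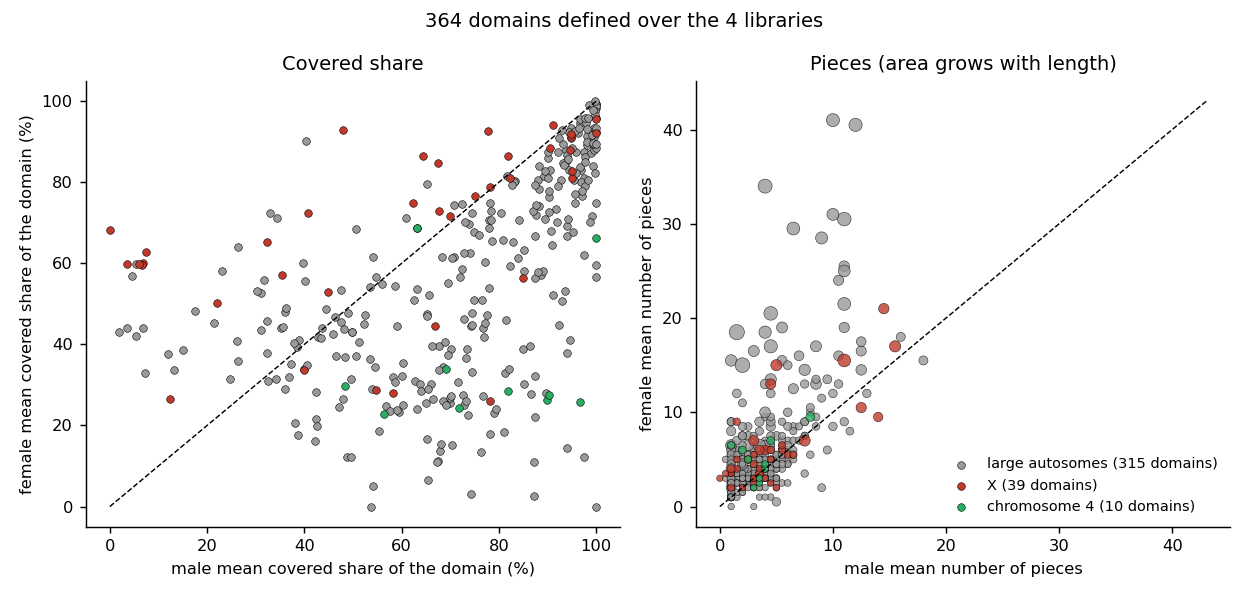
Domains on X, on the large autosomes and on chromosome 4 by the mean covered share in each sex (%, left) and by the mean number of separate pieces in each sex (right), with the line of equality dashed. Most autosomal and chromosome 4 domains lie below the line for covered share, X domains lie on both sides, and most wide domains lie above the line for pieces.

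Gene bodies were fitted with limma on the covered share over the 4 libraries, with Benjamini-Hochberg adjustment over the 4846 genes that had a peak in any of them. At an adjusted p under 0.05, coverage was higher in females for 22 genes (0.454% of those tested) and lower for 77 (1.59%). On X 3 genes were higher and 3 lower of 678 tested, on the large autosomes 19 and 72 of 4141, and on chromosome 4 0 and 2 of 27; there, limma had 0 higher and 7 lower genes at an unadjusted p under 0.05. The counts moved with the libraries in the fit: without either male library limma called 0 genes in either direction, with 107 to 109 higher and 196 to 241 lower at an unadjusted p under 0.05. Without female replicate 1 limma called 2436 genes higher and 234 lower, and without female replicate 2 it called 1844 and 203, on the assumption that the lone library varies like the males.

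The genes called in the 2 directions differed in length and in coverage. The 22 that rose in females were short, with a median length of 0.921 kb, 15 of them had no male peak in either library, and 18 of the 22 met no peak of −log10 q of at least 3 in any library. Of the 22, 19 were covered in full in both females. The 77 that fell in females had a median length of 6.53 kb; 57 of them were covered in full in both males, and 67 were also lower in both females when peaks with a −log10 q of at least 3 were used. In 20 of the 77 the difference was under 10 percentage points, and in 16 it was 50 points or more. Covered percent is bounded at 0 and 100, and a gene at a bound in both libraries of a sex has no spread there. Small differences can then pass, as for lbl at −1.81 points (limma adjusted p = 0.0387), while toy at −71.7 did not (0.0565). How far the bounds set the length and coverage of the called genes was not tested.

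Libraries of the sexes did not overlap for 1595 tested genes with higher (32.9%) and 447 with lower coverage in females (9.22%). By chromosome these were 286 and 25 genes on X, 1309 and 411 on the large autosomes and 0 and 11 on chromosome 4. Over all genes tested the median difference, female minus male, was 7.99 percentage points, and it was 10.5 on X, 7.80 on the large autosomes and −2.91 on chromosome 4. Genes entered the test through a peak in any library, and the female lists held more peaks. A gene with peaks in females alone thus raised the share higher in females and the median. How much of either value came from such genes was not tested. Genes with 50% or more of the body under peaks were counted as marked. Marked genes numbered 936 and 1185 in the females and 733 and 719 in the males, and 464 were marked in all 4 libraries. In both female and neither male libraries 142 genes were marked (1.02% of all genes), 27 on X and 115 on the large autosomes. Of these 142 genes, 112 had no peak in either male. In both male and neither female libraries 64 were marked (0.46%), 60 on the large autosomes, 4 on chromosome 4 and 0 on X. With peaks of −log10 q of at least 3 these counts were 4 and 118, and with a limit of 80% of the body they were 45 and 92.

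Hox genes, which specify segment identity along the body axis, were covered almost throughout in both sexes, and 7 of the 8 were lower in both females than in both males, against 9.22% of all genes tested. Coverage of Antp was 88.8% and 89.1% in the females and 100% and 100% in the males, and it fell by 11.02 points in females (SE 0.201, limma adjusted p = 0.00531). Abdominal genes followed, with 93.3% and 93.2% against 100% and 100% for abd-A and 91.2% and 91.1% against 100% and 100% for Abd-B, both with a limma adjusted p of 0.00531. Ubx had 96.0% and 95.0% against 100% and 100% and did not pass (adjusted p = 0.0727). Dfd was at 100% in all 4 libraries. Male coverage of 6 of the other 7 was at 100% in both libraries, where a difference can only be 0 or negative. The median difference of the 8 was −7.23 points.

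The eye and appendage patterning genes held the most calls of any list. Of 27 tested, 11 fell in females and 0 rose, and 21 were lower without overlap; over all genes tested the shares were 1.59% called lower and 9.22% lower without overlap, to be set beside each list that follows. For ap, a LIM homeobox gene that makes the dorsal wing compartment, coverage was 50.1% and 53.2% in the females and 97.4% and 96.2% in the males, a difference of −45.1 points (SE 1.73, limma adjusted p = 0.0128). The trunk and proximal appendage gene tsh had 60.5% and 58.2% against 100% and 100% (adjusted p = 0.00816), and its paralogue tio had 61.3% and 55.2% against 100% and 100% (adjusted p = 0.0269). Both tsh and tio lie in the 5 Mb of 2L next to the centromere. Coverage of that region was 14.3% and 15.8% in the females and 20.7% and 19.1% in the males. For hth, which brings the Hox cofactor Extradenticle into the nucleus, coverage was 60.6% and 58.9% in 24 and 29 pieces against 91.7% and 92.1% in 6 and 8 pieces (adjusted p = 0.0115). With the stronger peaks, hth kept 18.03% and 9.92% in the females and 74.2% and 81.5% in the males. In salm, coverage was 74.4% and 75.5% against 100% and 100%, and in dac, a retinal and leg determination gene, 82.8% and 81.4% against 96.3% and 96.8%. Dll, the distal limb selector, fell by less, with 94.0% and 93.8% against 100% and 100%.

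In the other lists of developmental regulators, genes that passed the test were lower in females. Among T-box, GATA, NK and Iroquois genes 6 of 24 tested fell and 0 rose, among them mid and its paralogue H15, which had 86.3% and 85.0% and 91.3% and 90.7% in the females against 100% in both males. The GATA factor pnr had 78.2% and 76.8% against 97.7% and 94.9% (limma adjusted p = 0.0353). Of 23 neural fate genes 6 fell, including eyg, a Pax gene, with 74.7% and 73.4% against 100% and 100%, and D, a Sox gene, with 86.3% and 86.3% against 100% and 100%. Of 23 segmentation genes tested, 3 fell, namely gsb-n, tll and oc, and eve, en, btd, odd, ftz and ems were among those at 100% in all 4 libraries. Their median difference was 0, with 1 gene higher and 8 lower without overlap. Signalling ligands had 5 higher and 7 lower without overlap, and 1 of 16 tested fell, Wnt10, at 90.7% and 91.1% against 100% and 100%; wg was at 100% in every library. The sex determination gene dsx, whose splice forms direct female and male development, had 60.5% and 57.7% in 11 and 11 pieces in the females and 88.8% and 93.3% in 3 and 1 pieces in the males (difference −31.9 points, SE 2.37, adjusted p = 0.0414), while fru, at 6.43% and 11.1% against 0.711% and 0.933%, did not pass (adjusted p = 0.247).

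Among the lists of developmental regulators, that of chromosome 4 had the widest median difference, −42.8 points. All 7 tested genes of its list were lower in both females than in both males, and 2 passed the test. Over all 27 genes tested on chromosome 4, 40.7% were lower without overlap and 7.41% were called lower. Those 2 calls were the only ones of the chromosome. Sox102F, a Sox-family factor at 4:800436-834393, was covered over 25.0% and 25.1% of its body in the females and 90.1% and 91.9% in the males, a difference of −65.9 points (SE 3.68, limma adjusted p = 0.0215). The Pax6 gene ey, which directs eye formation, had 61.7% and 66.7% in 6 and 7 pieces against 96.9% and 97.3% in 1 piece each (difference −32.9, SE 2.11, adjusted p = 0.0294). Its paralogue toy had 26.4% and 14.8% against 92.1% and 92.5% (adjusted p = 0.0565), and sv, the Pax2 gene of sense organs, 18.4% and 17.1% against 87.1% and 80.6% (adjusted p = 0.064). For zfh2, a homeobox and zinc finger factor, the values were 26.6% and 25.7% against 70.6% and 67.3%. These 5 contrasts were also present with the stronger peaks, as for toy, at 14.2% and 11.8% against 92.1% and 92.5%. Of the other tested members pan, the TCF factor of Wnt signalling, met no stronger peak, and the zinc finger gene dati reversed, with 16.0% and 18.7% against 39.9% and 29.2% for all peaks but 6.49% and 11.6% against 0% and 0% for the stronger ones. No protein-coding gene of this chromosome was higher in both females than in both males. PlexB, a plexin receptor, and Syt7, a synaptotagmin, were next in the ranking and reached 16.3% at most.

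**Figure D5:**
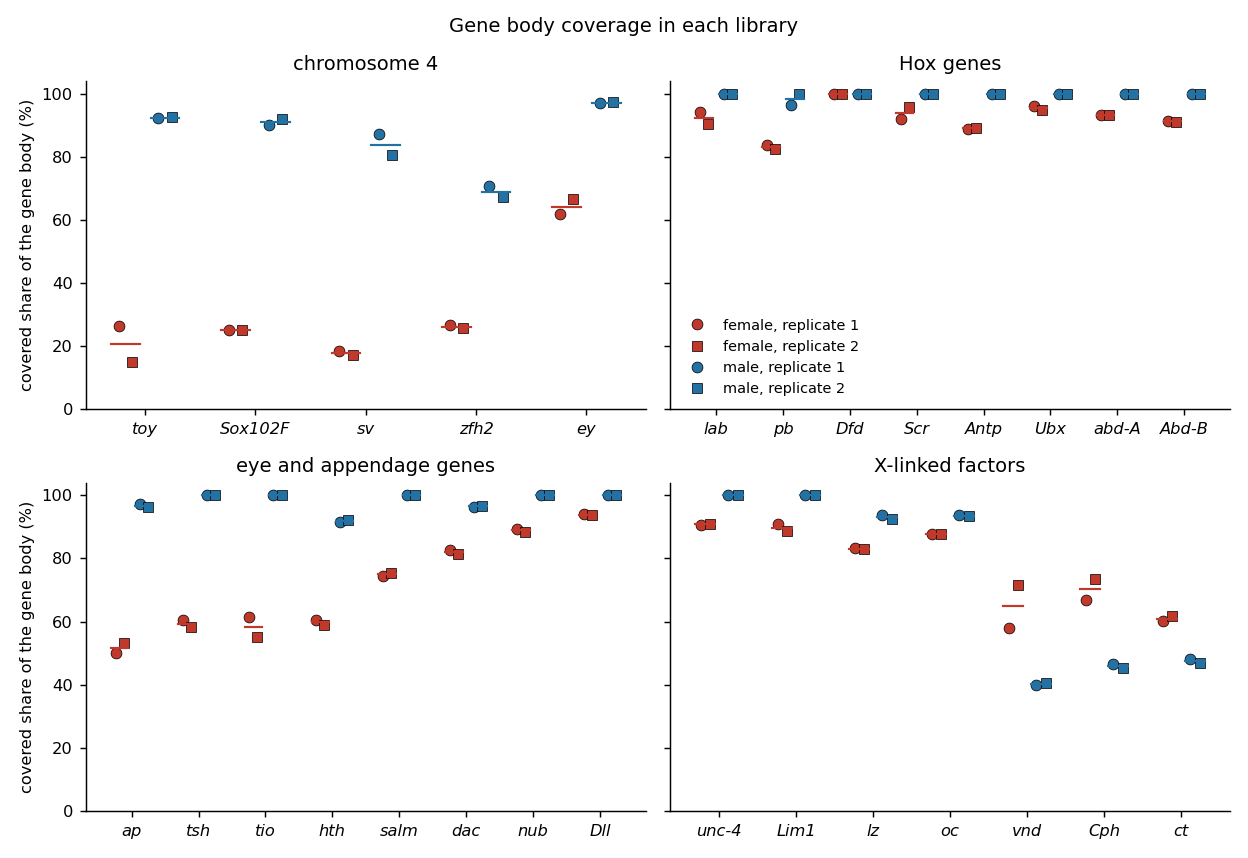
Covered share of the gene body (%) in each library for developmental regulators of chromosome 4, the Hox complexes, the appendage list and X, one point per library and a line at the mean of each sex. The females are lower for the genes of chromosome 4 shown, for 7 of 8 Hox genes and for the appendage genes shown, while the X genes go both ways.

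X-linked regulators went both ways. Of 29 tested, 9 were lower and 10 higher in females without overlap, and 3 fell by the test. Over all X genes tested 42.2% were higher and 3.69% lower without overlap. Those that fell were highly covered in both sexes: unc-4, a homeobox gene of motor neurons, had 90.6% and 91.1% against 100% and 100% (difference −9.15 points, SE 0.224, limma adjusted p = 0.00583), lz, a Runx factor of blood and eye, 83.2% and 82.9% against 93.8% and 92.6% (adjusted p = 0.0218), and oc, also called orthodenticle, 87.9% and 87.6% against 93.6% and 93.4% (adjusted p = 0.018). Lim1 had 90.8% and 88.8% against 100% and 100% (adjusted p = 0.0526), and Vsx1 90.5% and 84.7% against 96.2% and 96.3%. Some genes were higher in both females without passing. The columnar neural gene vnd had 58.0% and 71.7% in the females and 39.8% and 40.6% in the males (adjusted p = 0.235), Cph 66.7% and 73.6% against 46.4% and 45.3%, and ct, a homeobox gene of external sense organs, 60.2% and 61.8% against 48.0% and 47.0%. With the stronger peaks ct had 26.7% and 20.1% in the females and 30.0% and 34.7% in the males, so its order reversed. Small genes such as ase, a proneural gene of the achaete-scute complex, and dmrt11E were at 0% in both males and at 36.0% and 25.2% and at 33.4% and 46.7% in the females.

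Among X genes of at least 1 kb and 10 kb apart, those with the widest gap in favour of females had weak peaks. Muc18B, a mucin gene of 1.15 kb, was covered over 100% and 86.9% in the females and 0% in both males (limma adjusted p = 0.0614). CG18258, CG6481, CG1387, CG15756, CG32812, CG12496 and CG3081 likewise had no male peak and between 65.1% and 100% coverage in the females, with adjusted p from 0.09 to 0.185, and none met a female peak of −log10 q of at least 3. The 3 X genes that rose by the test were CG34434, with 100% and 100% in the females and 34.1% and 35.0% in the males, and Ste:CG33242 and Ste:CG33243, members of the Stellate repeats. Stellate copies are nearly identical, so reads cannot be assigned to one of them with certainty. In the opposite direction CG14190 had 15.4% and 2.41% against 28.3% and 33.1%, and Phf7, which encodes a reader of histone H3 in the male germline, 0% and 0% against 17.2% and 12.2%; neither passed (adjusted p = 0.352 and 0.195). CG3857 and Snx27 also stayed low, at 22.8% at most.

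Autosomal genes that rose in females were mostly small and uncharacterised. CG14297, CG3955, CG14354 and CG14565, each of 1.02 to 1.22 kb, were covered in full in both females and had no peak in either male (limma adjusted p = 0.0215, the same for all 4), and CG13727 had 92.4% and 89.8% against 0% and 0% (adjusted p = 0.0427). The germline gap junction gene zpg had 89.98% and 85.4% against 0% and 0% and did not pass (adjusted p = 0.0565), nor did CG15546 and CG31661. At the stronger peak limit, the gene zpg kept 89.98% in 1 female library and CG14297 none. In the opposite direction CG34260 was at 0% in both females and 100% in both males (adjusted p = 0.0215), and it too met no peak of the stronger limit in any library. Ctr1B, a copper importer, had 29.4% and 23.9% against 100% and 100% (difference −73.3 points, SE 3.38, adjusted p = 0.0172), and CG33648 26.8% and 21.5% against 100% and 100%. Cyp313a5, a cytochrome P450, had 0% and 32.0% against 100% and 100%, and did not pass (adjusted p = 0.18). CG10651, CG5103, Osi18 and LS2 were at 73.4% to 100% in the males and 26.9% at most in the females, with adjusted p from 0.0974 to 0.145.

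Lists of differentiated tissues held few calls. Among larval gut genes, 16 were tested and limma called 0 in either direction (5 higher and 0 lower at an unadjusted p under 0.05), 7 were higher in both females, where 32.9% of all genes tested were, and the median difference was 28.0 points against 7.99 for all genes tested. The maltase gene Mal-A1 had 79.96% and 83.8% in the females and 0% in both males (limma adjusted p = 0.0747), the amylase gene Amy-d 100% and 100% against 14.4% and 35.9%, and alphaTry, a trypsin, 83.7% and 46.3% against 0% and 0%. Odorant and gustatory receptor genes had a median difference of 14.6 points, neuronal genes 2.43, muscle genes −1.11 and fat body genes 13.1, with 0 limma calls in each. At an unadjusted p under 0.05, 2 receptor genes were higher, 2 neuronal genes were higher and 1 lower, 0 muscle genes differed and 1 fat body gene was lower. Salivary gland genes, 8 of them tested, had a median difference of 17.9 points, with 1 higher and 2 lower without overlap. The 1 limma call of that list, the glue gene Sgs5, went against its median, with 43.8% and 48.2% against 100% and 100% (adjusted p = 0.0134). The fat body gene Fbp1 also went against the median of its list, with 30.1% and 45.5% against 100% and 100% (adjusted p = 0.0812). Neither Sgs5 nor Fbp1 met a peak of −log10 q of at least 3 in any library. Of 26 larval cuticle genes 16 had no peak in any library. Of the 10 tested, 9 were marked in all 4 libraries, most of them the neighbouring genes Edg84A and Ccp84Aa to Ccp84Ag. These neighbours had the same highest −log10 q in the males, 20.8 and 19.9, as the Hox gene lab. The cuticle list had 0 limma calls and 1 gene higher at an unadjusted p under 0.05. Ribosomal protein genes, which are active in every cell, had a peak in 1 of 40 genes. None of the 6 genes found from the list for the MSL complex and roX RNAs, which includes Clamp, had any.

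Germ cells differ between the sexes in whole larvae, and the genes of both germlines were examined for that reason. Of 27 testis and male germline genes found, 15 had no peak in any library, among them aly, sa, betaTub85D, ProtA and ProtB, and the summed coverage of the list was 8.40 and 11.1 kb in the females and 7.35 and 7.62 kb in the males. Of the 12 tested, 2 fell in females: dj, a sperm tail gene at the edge of the Antennapedia complex domain, with 32.4% and 33.0% against 100% and 100% (limma adjusted p = 0.00872), and nht, a testis TAF subunit, with 71.1% and 74.8% against 100% and 100% (adjusted p = 0.0218). The highest −log10 q over nht in the males, 6.45 and 7.59, was the same as over esg. Of 25 ovary and female germline genes 8 had no peak, Yp2 and Yp3 among them, the summed coverage was 18.8 and 23.9 kb against 15.8 and 16.8 kb, and limma called 0 of 17 tested (1 higher and 0 lower at an unadjusted p under 0.05). The part of germ cell content in the differences was not tested. Polycomb group genes had Psc and Su(z)2 at 100% in all 4 libraries with 0 limma calls among 5 tested and 0 at an unadjusted p under 0.05, and 1 of 15 trithorax group genes had any peak.

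Windows of 10 kb, which include the stretches between genes, were tested in the same way. Of 8893 windows with a peak in any library, limma called 5 higher in females (0.0562%) and 206 lower (2.32%). On X 4 were higher and 20 lower of 1365, on the large autosomes 1 and 175 of 7461 and on chromosome 4 0 and 11 of 67. Libraries did not overlap in 2894 windows higher (32.5%) and 1820 lower (20.5%), and on X these were 570 and 137. As with genes, a window could enter the test through the females alone. Any peak was found in 39.6% and 48.7% of X windows in the females and 15.9% and 14.5% in the males; on the large autosomes the shares were 49.3% and 55.0% against 33.9% and 32.0%, and on chromosome 4 34.3% and 32.1% against 42.5% and 37.3%. Without either male library limma called 0 windows, with 231 to 399 higher and 885 to 1103 lower at an unadjusted p under 0.05.

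The direction in a window went with its level and its chromosome. Windows with a mean of 10 to 50% over the 4 libraries had a median difference of 21.9 points on X (279 windows) and 0.30 on the large autosomes (2033 windows). Above 50% the medians were 0 on X, −11.2 on the large autosomes and −53.9 on chromosome 4. The window with the widest gap in favour of females, X:19880001-19890000 at Hers and amn, had 65.1% and 64.9% against 0% and 0% (limma adjusted p = 0.0353), followed by X:1280001-1290000 at CG32812 and DAAM with 61.2% and 61.8% against 0% and 0% (adjusted p = 0.0395) and by a window at Bx, which did not pass. On X the opposite direction was led by X:10001-20000, near the telomere end, with 0% and 0% against 68.2% and 58.5% (adjusted p = 0.0608), and by a window in Lim1 with 54.0% and 54.3% against 100% and 100%. On 2R the window 2R:170001-180000, which holds no protein-coding gene, was at 0% in both females and 100% in both males (adjusted p = 0.00525). Of the 175 lower windows of the large autosomes 33 lay in the 5 Mb next to the centromere, where 1386 were tested, and 142 among 6075 elsewhere. On chromosome 4 the widest gaps were in windows of Sox102F (0% and 8.38% against 100% and 99.6%), zfh2 (11.2% and 3.59% against 100% and 100%) and toy (13.5% and 10.9% against 100% and 100%).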

How the data were processed

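H3K27me3 ChIP-seq libraries of wild-type larvae were analysed from the broad peak lists that the authors deposited, 1 per library. Per the submitters' processing notes the tools were deepTools 3.5.1, Picard, SAMtools 1.13, Bowtie2 2.4.5 and Trimmomatic 0.39, with the build dm6. Which program called the peaks is not given in the sources used here. Every list gives, as deposited by the authors, a display score, a fold enrichment (a ratio) and −log10 p and q values per peak; the scores were not used, and the fold and −log10 q values filtered peaks within a list. The lowest −log10 q among them was 1.003. Positions are those of Release 6, the same as dm6, and arm lengths run to the last annotated gene or peak.

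Merged peaks were intersected with gene bodies and windows (Python 3.11.15, pandas 2.3.3, numpy 2.4.6). limma 3.58.1 (R 4.3.3; lmFit, eBayes with trend) was fitted to covered percent over the 4 libraries, without a replicate block. It was also run on simulated data, whose spread came from the male libraries alone and whose planted changes were all decreases. That run cannot show how the fit behaves with the spread of the female libraries or for increases. Library values were compared by exact permutation. Named genes were, per class and direction, up to 8 genes of at least 1 kb with the widest gap between the sexes, at least 10 kb apart, plus members of 22 lists (433 of 444 symbols found, 6 of them through synonyms). The members and the lists were chosen with earlier results of these data known. Other genes and domains in the text, such as CG34434 and the Stellate copies, were picked after their values were seen. The labels do not say whether replicate numbers pair the samples across the sexes. Deviations of libraries with the same number had a correlation of −0.00649 over genes, which cannot settle how the samples were handled. The alternatives changed the peak limits, the joining of gaps, the scale, the filters, the window size, the mark limit and the libraries in the fit.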

Additional observations from a re-analysis of the deposited data

How the results depend on the processing

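Of 215 recomputed summary values, 141 were counted as unchanged. For a count this meant a number of similar size. For a library measure it meant that the groups kept their overlap or their separation. A change of sign was counted only where the groups were separate in at least 1 of the 2 settings compared. Keeping peaks with a −log10 q of at least 3 turned the female minus male difference for X coverage (−0.208 points), large autosome coverage (−3.33), peak number (−64.0) and median width (0.490 kb on X, 0.01625 kb on the large autosomes), and gave 4 genes marked in females alone and 118 in males alone, 10 genes higher and 183 lower, and 18 windows higher and 485 lower. It also turned dati (9.02 points) and ct (−8.94). Lists of equal length turned large autosome coverage to −0.578; leaving out the 5 Mb next to each centromere, added after seeing the data, moved it to 2.43. The limma counts of genes (higher, lower) ranged from 0 to 2436 and 0 to 234 with each library left out in turn, and those of windows from 0 to 3582 and 0 to 674; marked genes ranged from 165 to 582 in females alone and from 98 to 122 in males alone, and large autosome coverage from −0.512 to 1.17. Window counts (higher, lower) were 8 higher after joining gaps of 1 kb, 1175 and 676 on the arcsine scale, 752 and 448 with 6 libraries, 214 and 537 with a mean of at least 10%, 30 higher with no filter, 16 and 358 at 5 kb and 58 higher at 20 kb. Genes higher were 305 with 6 libraries, 55 with a mean of at least 10% and 6 with no filter. With the replicate block limma called 0 genes in either direction (118 higher and 192 lower at an unadjusted p under 0.05) and 3 windows higher. Whether the replicate numbers pair the samples is not known. Marking at 20% of the body gave 434 genes in females alone and 59 in males alone, and marking at 80% gave 45 and 92, so the balance turned. The causes were not tested. Depth is unknown, so no value can be tied to it.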
